A study of Mus musculus with 33 samples.

Results

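The cytosolic ribosomal protein genes encode the proteins that, with ribosomal RNA, make up the small and large subunits of the ribosome outside the mitochondria. They were taken by name from the RNA-seq gene table of cultured mouse neural stem cells. The rule took every symbol made of Rpl or Rps, a number (with a p before it for the stalk proteins) or a single a (Rpsa), and at most one closing letter a, x, y or l. It found 81 of 26621 symbols, of which 32 are named Rps and 49 Rpl. By role, 31 are small subunit genes, 43 are large subunit genes, 3 encode the stalk (Rplp0, Rplp1 and Rplp2) and 4 are second copies that resemble another member (Rpl3l, Rpl10l, Rpl39l and Rps27l). The members lie on 19 chromosomes, 4 of them on the X (RefSeq, GRCm38.p6).

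As background, each ribosome holds 1 copy of nearly every one of these proteins, and cells make them in step with growth. Their mRNAs are short, abundant and long-lived, and most begin with a cytosine followed by a run of pyrimidines, the 5′ terminal oligopyrimidine (TOP) motif. Through this motif the kinase mTORC1 and the RNA-binding protein LARP1 control their translation and storage. N6-methyladenosine (m6A) is a methyl mark on adenosines in mRNA, and YTHDF2 is a reader protein that binds marked mRNA and is known for bringing it to decay.

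The study grew neural stem cells of the hippocampus of newborn mice (postnatal day 0.5) with the growth factors bFGF and EGF. RNA-seq covered cells labelled Nestin-WT and cells labelled Nestin-cKO, a conditional knockout (cKO) of Ythdf2 whose Cre line and allele the labels do not describe further. Cells of both genotypes were taken at 0, 2 and 4 h of 5 µM actinomycin D, which blocks transcription, with 3 libraries for each genotype and hour. Separate WT cells, with no drug named in their labels, gave RNA enriched for m6A by antibody with its input (3 libraries each), and RNA bound to YTHDF2 by antibody, with an IgG control and an input (3 each). The labels do not say whether replicates came from separate animals, so p-values measure only the spread between these libraries.

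Totals were 10257329 to 21353383 counts in the RNA-seq libraries, 12892222 to 28334300 in the m6A series and 8419106 to 23097887 in the YTHDF2 series. Ythdf2 itself went against the genotype label: at 0 h it held 218.7, 252.9 and 258.2 CPM (counts scaled to a fixed library total, normalized by TMM) in the libraries labelled WT, and 3117, 1035 and 735.9 in those labelled cKO. The genotype is therefore named below by its label, and a direction drawn from it is a direction between labels. Markers of other cell types also differed between the labels at 0 h. The 6 fibroblast markers summed to 0.809 to 1.66 CPM in WT and 16.6 to 58.2 in cKO libraries, the 4 neuronal markers in the table to 73.6 to 105.7 and 12.4 to 26.4, the 5 oligodendrocyte lineage markers to 361.9 to 491.3 and 98.7 to 195.3, and the 5 proliferation markers to 2444 to 3071 and 494.9 to 1617. Neural stem cell markers were present in both and lower in cKO libraries, without overlap (12600 to 14510 and 7199 to 11010 CPM). The 3 astrocyte markers were also lower there (1062 to 1883 and 582.5 to 919.9 CPM), while the 4 microglial markers summed to at most 1.57 CPM. In bulk RNA, a change in the number of cells of a type and a change in RNA per cell cannot be told apart. In the YTHDF2 series a library titled Input is described as YTHDF2, and a library titled YTHDF2 is described as Input. Descriptions were followed here, as the names of the count columns do: Ythdf2 mRNA held 211.8 to 249.1 CPM in the libraries they name YTHDF2, against 75.2 to 77.7 in IgG and 85.8 to 95.8 in Input.

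The stretch around the transcription start is shown for the 3 members of each subunit with the highest mean level per length among those shown with a single annotated RefSeq start, because it is where the TOP motif begins. Each line gives 30 bases from 5′ to 3′ on the gene's strand, in which base 16 is the start annotated in the RefSeq promoter table. Capitals mark the longest pyrimidine run that touches the 5 bases either side of the start, where it has 5 or more letters.
Rps26 (small subunit, chr10:128626492-128626521, minus strand): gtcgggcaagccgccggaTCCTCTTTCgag
Rps18 (small subunit, chr17:33955651-33955680, minus strand): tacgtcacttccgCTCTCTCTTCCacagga
Rps23 (small subunit, chr13:90923107-90923136, plus strand): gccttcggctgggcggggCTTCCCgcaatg
Rpl41 (large subunit, chr10:128549154-128549183, minus strand): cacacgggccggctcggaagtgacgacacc
Rpl35 (large subunit, chr2:39005117-39005146, minus strand): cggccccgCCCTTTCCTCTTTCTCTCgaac
Rpl4 (large subunit, chr9:64173372-64173401, plus strand): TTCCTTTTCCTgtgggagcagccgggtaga
Members that the results below turn on follow, as far as they have a single start. They were added after their values were seen.
Rplp2 (stalk, chr7:141447636-141447665, plus strand): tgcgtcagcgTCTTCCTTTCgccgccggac
Rps2 (small subunit, chr17:24720048-24720077, plus strand): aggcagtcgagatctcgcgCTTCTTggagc
Rps10 (small subunit, chr17:27635230-27635259, minus strand): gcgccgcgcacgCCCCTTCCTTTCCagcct
Rpl39 (large subunit, chrX:37085208-37085237, minus strand): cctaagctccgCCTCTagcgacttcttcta
Rpl39l (second copy, chr16:10170213-10170242, plus strand): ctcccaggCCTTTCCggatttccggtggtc
Rpl35 carried the longest run of these, 18 pyrimidines, while the Rpl41 window held no run of 5 at its annotated start. For Rps2 and Rpl39l the start shown lies downstream of the first base of the gene as RefSeq lists it (24718121 and 10170197), so their windows are not at the listed 5′ end of the gene.

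Over all 72 annotated starts of the 60 members matched in the RefSeq table (GRCm38.p6), 23 starts (31.9%) had a pyrimidine run of at least 8 touching those bases, against 9.72% of all 32841 starts. The letters CTTTC lay within 10 bases of the start on the gene's strand in 15.3% of member starts and 2.44% of all starts, and TTTCC, which overlaps CTTTC by 4 letters, in 18.1% and 2.87%. In the whole 300-base window, searched on both strands, CCGGAAG occurred in 36.1% of member starts against 8.86% of all, GGGCGG in 58.3% against 35.7%, AAGATGGCG in 6.94% against 1.40% and TATAAA in 8.33% against 13.6%. These are matches of letters, not sites of binding. Members with and without the run had like medians in the time course and in the m6A pull-down: those with a run of 8 had a median log2 difference of 0.75 at 4 h of actinomycin D in WT and those without one 0.75 (23 and 34 members tested, Rpl39l left out), and in the m6A pull-down the medians were -1.57 and -1.62. In the YTHDF2 series the medians lay further apart. Those with a run had -0.72 for YTHDF2 minus input (quartiles -1.04 and -0.07) and those without one -0.996 (-1.82 and -0.60), and for IgG minus input the medians were -0.52 and -0.82. These differences between members were not tested.

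Ribosomal protein mRNAs were among the most abundant in these cells. In WT cells at 0 h the members took 3.59% ± 0.145 of all counts (SD, n = 3) and 9.15% ± 0.318 of the summed TPM (a level per transcript length, scaled to a fixed library total). Without the second copies, the median member stood at 973.7 TPM (quartiles 626.3 and 1367), against 8.34 TPM for the median of all 14029 genes tested. Of these 77 members 73 were above 100 TPM and 63 above 500 TPM. In the order of levels, 20 of 80 neighbours differed by more than the larger of their SDs, so most places in the order are not separated by the replicates. Ribosomal protein genes have many processed pseudogenes, and how reads that fit several places were counted is not given in the sources used here, so the level of a single member is uncertain.

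At the top of the order per length stood Rps14, a small subunit protein, with 4030, 4238 and 4277 TPM in the 3 WT libraries at 0 h, followed by Rpl41, the smallest ribosomal protein, with 3639, 3671 and 3926 TPM. Rps27l, the second copy of Rps27, held 2951, 2941 and 3160 TPM and its main copy 1423, 1416 and 1618, so the second copy was the higher one in each of these libraries. The stalk, which recruits translation factors to the ribosome, was uneven: Rplp0, its base, averaged 1712 ± 81.9 TPM, Rplp1 1033 ± 96.6 and Rplp2 626.3 ± 37.8 (SD, n = 3). At the bottom stood Rps15a, Rpl27a and Rpl13 at 91.3 to 96.2 TPM, where the place of Rps15a rests on its length, and Rpl39 at 11.5 ± 1.31 TPM, while Rpl3l, Rpl10l and Rpl39l were at or near 0. The relative length of Rps15a, the ratio of counts to TPM, was 1.80, against at most 0.714 for the other members, and per library total it held 232.1 CPM against 50.7 for Rpl27a and 36.9 for Rpl13. Of the 81 members, 79 passed the low-count filter in the RNA-seq libraries (not Rpl3l and Rpl10l) and 78 in the other series (not Rpl39l either).

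**Figure D1:**
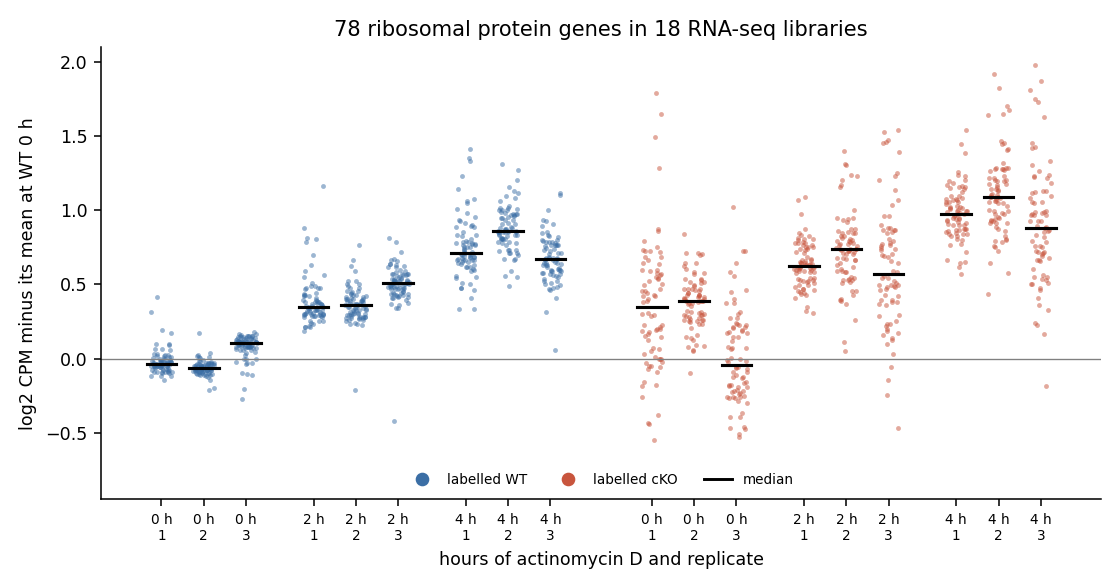
Log2 normalized CPM of 78 members (points; Rpl3l, Rpl10l and Rpl39l left out) in each of the 18 RNA-seq libraries, relative to the gene's mean over the WT libraries at 0 h, with the median of each library as a black bar. Medians climb from about 0 at WT 0 h to 0.67 to 0.86 at WT 4 h and 0.88 to 1.09 at cKO 4 h on TMM scaling, and the points scatter more widely in the libraries labelled cKO.

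At 0 h a minority of ribosomal protein genes were higher in the libraries labelled cKO and no member was called lower. The members called were led by Rps10 and Rps2 of the small subunit, the stalk genes Rplp1 and Rplp2, and the second copy Rps27l. Of 79 members tested, 15 were called higher by edgeR's quasi-likelihood test (adjusted p under 0.05), against 7.71% of all genes tested called higher and 9.89% called lower. The median member differed by 0.25 on the log2 scale, a 1.19-fold higher level, and the median over all genes by -0.01. Of the 15, 4 were small subunit genes, 8 large subunit genes, 2 stalk genes and 1 a second copy.

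Rps10 (chromosome 17 from 27630415 to 27635244), a small subunit protein at the mRNA entry side, held 45.8, 37.7 and 37.1 CPM in the WT libraries and 125.6, 65.4 and 60.1 in those labelled cKO. The groups did not overlap, and replicate 1 labelled cKO stood far above replicates 2 and 3. The log2 difference was 1.06 (SE 0.26, edgeR adjusted p = 0.0136). Rps2 (chromosome 17 from 24718121 to 24721927), which lines the mRNA entry channel, held 91.2, 90.6 and 100.1 CPM in WT and 264.1, 167.8 and 146.8 in cKO libraries, a difference of 1.04 (SE 0.23, edgeR adjusted p = 0.00709). Here too replicate 1 stood highest, with no overlap.

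The stalk did not move as one. Rplp1 (chromosome 9 from 61913283 to 61914510) held 253.5, 240.2 and 221.8 CPM in WT and 582.0, 317.3 and 325.8 in cKO libraries, and its partner Rplp2 (chromosome 7 from 141447651 to 141451359) 142.5, 130.9 and 136.0 against 225.4, 223.8 and 187.7. Both were called, at 0.78 (SE 0.22, edgeR adjusted p = 0.0263) and 0.64 (SE 0.15, edgeR adjusted p = 0.00941). Rplp0 (chromosome 5 from 115559467 to 115563729), to which both bind, had overlapping groups, 1122, 1091 and 1243 CPM in WT and 785.2, 1215 and 807.2 in cKO libraries, with a difference of -0.30 (SE 0.19, edgeR adjusted p = 0.281), the lowest of any member.

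Rps27l (chromosome 9 from 66944624 to 66949522), known as a target of p53 in other settings, held 660.3, 670.9 and 746.8 CPM in WT and 1201, 1129 and 1016 in cKO libraries, a difference of 0.69 (SE 0.15, edgeR adjusted p = 0.00573). Its 3 cKO libraries lay close together, unlike those of Rps10 and Rps2. The main copy Rps27 held 394.6, 400.4 and 473.7 CPM against 491.9, 506.6 and 356.2, and its groups overlapped. The other members called, Rpl28, Rpl9, Rpl8, Rps24, Rpl26, Rpl12, Rps21, Rpl38, Rpl31 and Rpl29, differed by 0.41 to 0.50.

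The libraries labelled cKO disagreed among themselves over these genes. Relative to the WT mean of the same hour, the member median was 0.35, 0.39 and -0.04 in cKO replicates 1, 2 and 3 at 0 h, and the SD over members within 1 library was 0.44, 0.18 and 0.32, against 0.05 to 0.09 in the WT libraries at that hour. Rps12 was the extreme case, with 149.8, 150.7 and 180.8 CPM in WT and 552.2, 221.1 and 130.0 in cKO libraries. The count of 15 members fell to 4, 3 and 4 without WT replicate 1, 2 or 3 and to 5 without cKO replicate 2. It rose to 25 without cKO replicate 3, and to 38 with cKO replicate 3 left out at every hour. Of the genes above, the call of Rplp1 was lost without cKO replicate 1 (edgeR adjusted p = 0.0995) or any WT library (0.0702 to 0.0942), and that of Rps10 without WT replicate 2 or 3 (0.0534 and 0.0599). Those of Rpl29, Rpl38 and Rpl9 were lost without cKO replicate 2 or without WT replicate 1 or 2, and for Rpl9 also without cKO replicate 3, with adjusted p up to 0.183, and those of Rpl29 and Rpl9 also without WT replicate 3. Those of Rps2, Rplp2 and Rps27l at 0 h passed in all of these fits. The cell-type and proliferation markers given above moved with the label, and their part in these differences was not tested.

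**Figure D2:**
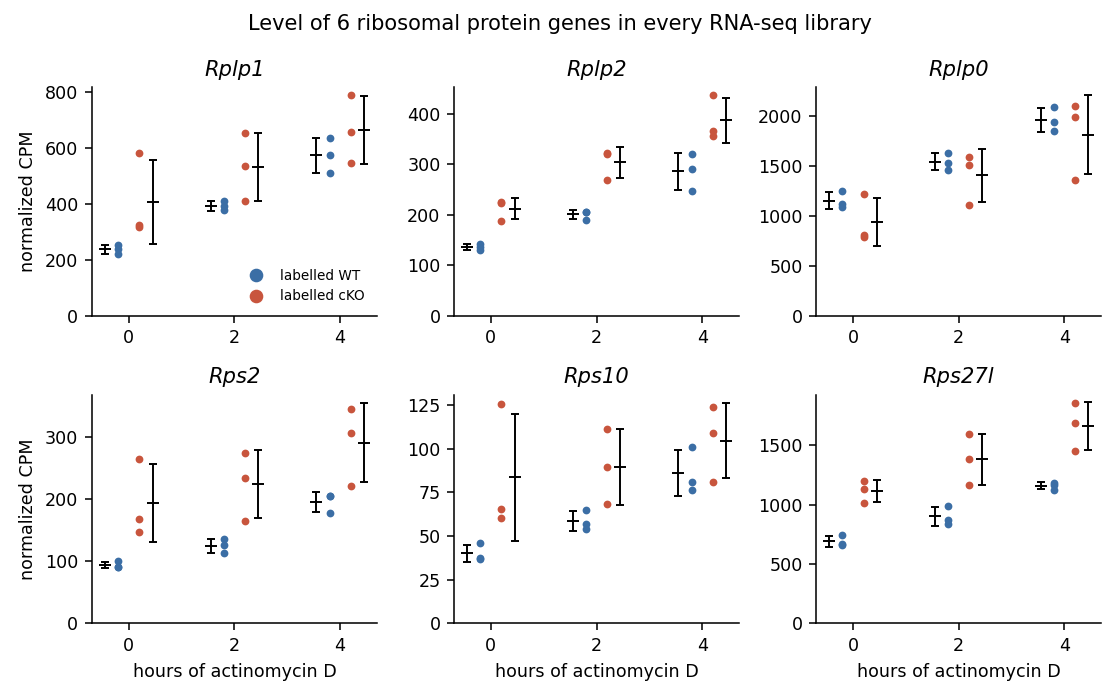
Normalized CPM (linear axis from 0) of 6 members against hours of actinomycin D, with 1 point per library labelled WT (blue) or cKO (red) and, beside each group in black, its mean and SD (n = 3). Rplp1, Rplp2, Rps2, Rps10 and Rps27l sit higher in cKO libraries at 0 h, while the groups of Rplp0 overlap at every hour.

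At 2 and 4 h of actinomycin D the members' median difference between labels was close to that at 0 h, and the members called were partly the same. The median of all genes was -0.01, 0.05 and 0.08 at 0, 2 and 4 h, so the gap between members and all genes narrowed. This narrowing was not tested. At 2 h 10 members were called higher and none lower (background 8.52% higher and 8.54% lower), with a median of 0.24, and at 4 h also 10 and none (background 11% and 9.11%), with a median of 0.21. At 4 h the count was close to the background share. In all, 21 members were called at 1 hour or more and 5 at all 3 hours: Rplp2, Rps27l and the large subunit genes Rpl29, Rpl38 and Rpl9. The matching shares of all genes are not given here, so these 2 counts cannot be read as particular to the members. The 3 comparisons rest on separate libraries whose replicate numbers recur at each hour. Whether a member's difference changed between hours was tested only as the slope given further on, which was called for none.

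Rplp2 stayed higher in cKO libraries by 0.60 (SE 0.15) at 2 h and 0.44 (SE 0.15) at 4 h (edgeR adjusted p = 0.0125 and 0.0439), and Rps27l by 0.62 and 0.52 (SE 0.14 at both, edgeR adjusted p = 0.01004 and 0.0194). Rps2 was called at 2 h (0.84, SE 0.23, edgeR adjusted p = 0.0194) and not at 4 h (0.58, SE 0.22, edgeR adjusted p = 0.0769). Rpl36 of the large subunit was called at 4 h, with 258.6, 290.4 and 210.3 CPM in WT and 340.4, 442.4 and 410.3 in cKO libraries (0.65, SE 0.19, edgeR adjusted p = 0.0269). Its groups did not overlap. Each call named here at 2 or 4 h was lost without at least 1 library: at 2 h that of Rplp2 without cKO or WT replicate 2, of Rps27l without cKO replicate 3 or WT replicate 1 or 2, and of Rps2 without cKO replicate 2 or 3 or any WT library (edgeR adjusted p 0.0503 to 0.0992). At 4 h those of Rplp2, Rps27l and Rpl36 were lost without cKO replicate 2 or 3 or any WT library (edgeR adjusted p 0.0522 to 0.22). The counts rest on single libraries: at 2 h the 10 members became 17, 1 and 2 without cKO replicate 1, 2 or 3 and 2, 1 and 4 without WT replicate 1, 2 or 3, and at 4 h 0 and 3 without cKO replicate 2 or 3 and 0, 3 and 0 without WT replicate 1, 2 or 3. With cKO replicate 2 left out at every hour the counts were 5, 0 and 0 at 0, 2 and 4 h, and with cKO replicate 1 left out they were 23 at 2 h and 24 at 4 h.

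Through 4 h of transcription block, the ribosomal protein mRNAs took a growing share of the RNA in both labels. Their share of all counts was 3.59% ± 0.145 at 0 h, 4.29% ± 0.205 at 2 h and 4.75% ± 0.281 at 4 h in WT libraries, and 4.35% ± 0.390, 5.45% ± 0.221 and 6.09% ± 0.257 in cKO libraries (SD, n = 3 each). These values are shares of each library's counts, while the tests that follow use TMM-scaled counts, which are not such shares. No external standard is named in the labels, so both show change relative to other transcripts and not in molecules per cell. In WT cells 76 of 79 members were called higher at 4 h than at 0 h and none lower, against 15.6% of all genes called higher and 24.2% lower. The 76 include Rpl39l, given below, which passed the low-count filter only through the later hours. The groups of 78 members did not overlap, against 29.2% of all genes that did not overlap and were higher. Short transcripts as a whole were also higher at 4 h. Of the 79 members, 72 lay in the shortest of 5 equal classes of relative length. The 2734 other genes of that class had a WT median of 0.51 with 30.8% called higher, against a median of 0.76 for the 72 members. In cKO libraries the medians were 0.42, with 24.5% of the other genes higher, and 0.73. The part of length in the members' gain was not tested further.

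The gain was narrow across members. On TMM scaling the median difference in WT at 4 h was 0.75 on the log2 scale, a 1.68-fold higher level (quartiles 0.67 and 0.86). The quartiles of all genes were -0.95 and 0.60. This fold is larger than the growth in the members' share of all counts, from 3.59% to 4.75%. Small subunit and large subunit genes had medians of 0.74 and 0.75. The 3 members not called were Rps6 (0.38, SE 0.19, edgeR adjusted p = 0.126), the S6 kinase substrate of the small subunit, Rpl39 (0.39, SE 0.35, edgeR adjusted p = 0.397) and Rpl4 (0.50, SE 0.20, edgeR adjusted p = 0.0600). Besides Rpl39l, given below, the largest differences were those of Rplp1 (1.27, SE 0.22), Rpl13 (1.13, SE 0.32), Rpl36 (1.11, SE 0.20), Rps10 (1.10, SE 0.26), Rpl29 (1.08, SE 0.13) and Rplp2 (1.07, SE 0.15).

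Rplp1 in WT libraries went from 253.5, 240.2 and 221.8 CPM at 0 h to 410.5, 377.0 and 392.8 at 2 h and 634.9, 575.7 and 511.3 at 4 h (edgeR adjusted p = 0.000275 for 4 h minus 0 h). No library overlapped between hours. Rpl36 (chromosome 17 from 56610094 to 56614246), a large subunit protein, held 132.0, 110.6 and 109.4 CPM at 0 h, 215.6, 199.1 and 205.0 at 2 h and 258.6, 290.4 and 210.3 at 4 h, where the lowest library fell within the 2 h values. At the low end, Rpl5 (chromosome 5 from 107900508 to 107909005), which with Rpl11 and the 5S ribosomal RNA binds the p53 regulator MDM2, held 351.8, 340.6 and 404.1 CPM at 0 h and 520.1, 532.6 and 510.3 at 4 h, a difference of 0.51 (SE 0.16, edgeR adjusted p = 0.0150). Rpl11 rose by 0.78 (SE 0.15, edgeR adjusted p = 0.000699). The calls of Rpl5 and Rpl10 (0.53, SE 0.16) at 4 h were lost without WT replicate 1 or 2 at 0 h, and that of Rpl6 (0.52, SE 0.16) without replicate 2 (edgeR adjusted p 0.0517 to 0.0646).

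At 2 h in WT the median was 0.41 and 18 of 79 members were called higher (background 3.63% higher and 13.7% lower). Among them were Rpl36 (0.82, SE 0.20), Rplp1 (0.72, SE 0.22), Rps19 (0.69, SE 0.17), Rpl29 (0.64, SE 0.13), Rplp2 (0.56, SE 0.15) and Rpl11 (0.46, SE 0.15). Replicate numbers tie the hours of a genotype together, which the main fit does not use. With the replicate block 69 members were called, the 18 included, and the share of all genes called with it is not given here. The count was 7, 5 and 7 without WT replicate 1, 2 or 3 at 0 h and 8 and 6 without replicate 2 or 3 at 2 h. The call of Rplp1 was lost without any 1 of the 6 libraries, that of Rpl11 without any but replicate 1 at 2 h, and that of Rplp2 without replicate 2 or 3 at 0 h or replicate 3 at 2 h (edgeR adjusted p 0.0508 to 0.18).

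In the libraries labelled cKO, 21 members were called higher at 2 h (background 2.21% higher and 9.85% lower; median 0.39) and 73 at 4 h (background 12.1% and 18%; median 0.73), and none lower. With the replicate block the 2 h count was 52. It was 10 without replicate 3 at 0 h, 13 and 6 without replicate 1 or 2 at 2 h, and 7 with replicate 2 left out at every hour. The largest differences at 4 h besides Rpl39l were those of Rpl36 (1.28, SE 0.20), Rps19 (1.21, SE 0.17), Rpl13 (1.20, SE 0.32), Rpl14 (1.08, SE 0.19), Rpl29 (1.02, SE 0.13) and Rplp0 (0.95, SE 0.20). The call of Rpl13 was lost with replicate 2 left out at every hour (edgeR adjusted p = 0.0840). Among the 6 not called were Rps12 (0.17), Rps10 (0.32), Rpl5 (0.39), Rps2 (0.59) and Rpl39 (0.87). Of these named genes, Rps12, Rps10, Rpl5 and Rps2 had their highest 0 h value in replicate 1 labelled cKO, and Rpl39 did not. Many members that were called, such as Rpl19, Rpl26 and Rps3, also had their highest 0 h value there.

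The scale on which these gains are read decides their size. Against the median of all genes the members' median at 4 h was higher by 0.74 in WT and 0.65 in cKO libraries on TMM scaling, by 0.74 and 0.66 on library size alone, and by 0.73 and 0.65 when libraries were scaled to the genes of complex I of the respiratory chain (symbols starting Nduf), themselves stable mRNAs as a rule. That last scaling moved the median of all genes at 4 h to -0.83 in WT and -0.56 in cKO libraries, and on it the members' own medians were -0.10 and 0.09 with 1 and 3 members called higher. These scalings shift the genes of a library alike, so the gap between the members and all genes is nearly fixed by their construction and is 1 measurement, not 3. In TPM the medians were 0.24 in WT and 0.35 in cKO libraries, and 19 and 39 members were called with limma on log2(TPM + 1). A gene is divided by the same length at each hour, so TPM too rescales the genes of a library nearly alike. The median of all genes in TPM is not given here, and the lower values do not show the part of length in the gain.

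**Figure D3:**
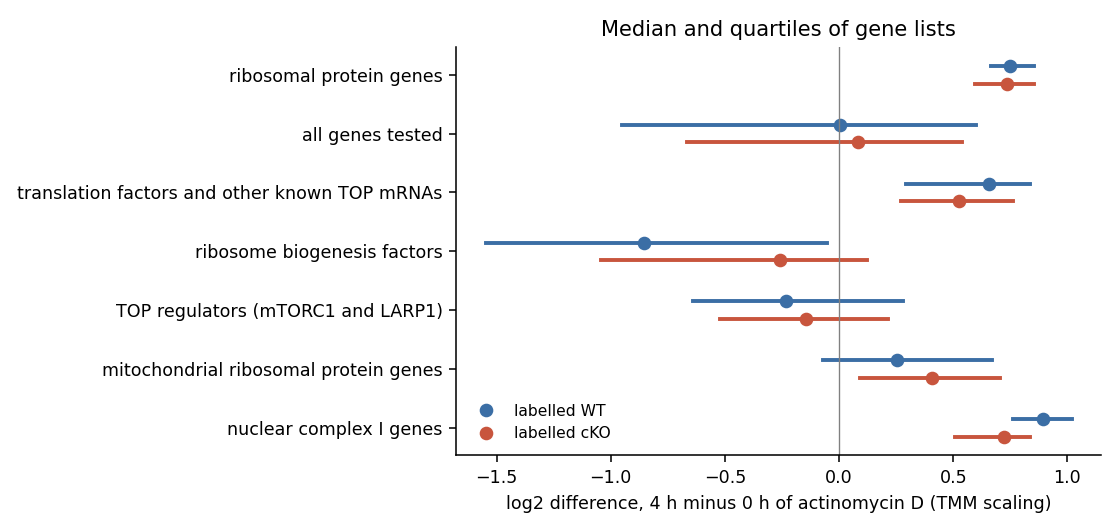
Log2 difference at 4 h minus 0 h of actinomycin D (TMM scaling) for gene lists, with the median as a point and the quartiles as a bar, in libraries labelled WT (blue) and cKO (red). The ribosomal protein genes (0.75 and 0.73) and the complex I genes (0.89 and 0.72) lie highest and ribosome biogenesis factors lowest (-0.86 and -0.26). On scaling to the complex I genes the ribosomal protein medians move to -0.10 and 0.09.

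Other genes tied to the ribosome took different courses. Of 22 translation factors and other mRNAs known to carry the TOP motif, 12 were higher at 4 h in WT and none lower, with a median of 0.66, and 13 were higher in cKO libraries with a median of 0.53. They included Eef1a1, the elongation factor that delivers tRNA (0.70 in WT, SE 0.15), and Fau (1.18, SE 0.18), which encodes a ribosomal protein fused to a relative of ubiquitin and is left out by the naming rule. The 30 ribosome biogenesis factors, which help build ribosomes and are not part of them, had a WT median of -0.86 with 16 lower and 3 higher. Tsr1, a late small subunit assembly factor, fell by 1.88 (SE 0.28), Nop56, a protein of box C/D RNA particles, by 1.76 (SE 0.37) and Nip7 by 1.19 (SE 0.18). In cKO libraries 10 of these factors were lower and 2 higher, with a median of -0.26.

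The 14 regulators of TOP mRNAs had a WT median of -0.23 with 4 lower and 1 higher. Larp1, which binds the TOP motif, fell by 1.96 (SE 0.18) in WT and by 0.54 (SE 0.17) in cKO libraries, and Mtor, the kinase of mTORC1, fell by 0.64 (SE 0.15) in WT and differed by 0.29 (SE 0.15, not called) in cKO libraries. The 75 mitochondrial ribosomal protein genes tested had medians of 0.25 in WT (23 higher, 11 lower) and 0.41 in cKO libraries (24 higher, 4 lower), and the 41 complex I genes 0.89 (35 higher, 1 lower) and 0.72 (32 higher, 1 lower). Their quartiles in WT, -0.07 and 0.67 for the mitochondrial list, were wider than those of the cytosolic members. Between labels at 0 h, none of the 14 regulators was called, 2 of the 22 translation factors were higher (Tpt1 and Eif3f), 13 of the 75 mitochondrial ribosomal protein genes and 19 of the 41 complex I genes were higher, and none in these 4 lists was lower. Of the 30 biogenesis factors, Rrp1 was higher and Tsr1 lower.

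No member was called as different between labels in its course over the hours. The difference in slope over 0, 2 and 4 h was called for 0 of 79 members by edgeR (smallest adjusted p = 0.553) and for 0 by DESeq2, with 1 member at an unadjusted p under 0.05. The median slope difference was -0.01 in log2 per hour (quartiles -0.03 and 0.03). Over all genes 0.00713% were called, so this comparison found almost nothing anywhere. The members with the lowest differences after Rpl39l were Rps12 (-0.21, SE 0.11), Rps10 (-0.19, SE 0.09), Rplp1 (-0.14, SE 0.07) and Rps2 (-0.12, SE 0.07). Each had its highest 0 h value in replicate 1 labelled cKO, as did many other members.

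Rpl39l was almost absent at 0 h and present in every later library of both labels. This second copy of Rpl39, known from testis, lies on chromosome 16 from 10170197 to 10174911. It had 0 counts in the 3 WT libraries at 0 h and 1 count over the 3 cKO libraries, then 49 and 59 counts over the groups at 2 h and 55 and 44 at 4 h, with 10 to 28 in each later library. Against a floor of 3 counts over the WT group at 0 h, its level was at least 14.5-fold higher at 2 h and at least 19.1-fold higher at 4 h. In cKO libraries the ratios to the single count were 42.0 (exact 95% interval 7.25 to 1685) at 2 h and 33.6 (5.72 to 1356) at 4 h, intervals that cover counting error only. Its level stayed near 1 CPM, 0.997 in WT at 2 h and 1.31 at 4 h. The main copy Rpl39 held 2.02, 2.53 and 2.19 CPM in WT at 0 h and 2.83, 3.72 and 2.33 at 4 h, with overlapping groups. No Rpl39l count was found in the 15 libraries of the m6A and YTHDF2 series. The rise lay between the 0 h libraries and all others in both labels, and its cause was not tested. Rpl10l, the second copy of Rpl10, had 0 counts at 0 h and 5 to 11 counts over each later group. With Rpl39l at its bound the members' medians are the same, since it is the highest member either way. Rpl39l passed the low-count filter only through the 2 and 4 h libraries, so its calls add nothing to the members' gain. It is among the 18 and 76 members called in WT and the 21 and 73 called in cKO libraries at 2 and 4 h.

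Every ribosomal protein mRNA tested was poorer in the m6A pull-down than in its input. All 78 members were called lower and none higher, against 14.3% of all genes called lower and 6.06% higher, and the groups of all 78 did not overlap (background 21.1% lower). The median difference was -1.57, or 0.336 times the input level (quartiles -1.80 and -1.31), and every member lay in the lowest 25% of all 14167 genes tested. The members' share of counts was 4.54%, 3.84% and 4.24% in the 3 inputs and 1.89%, 1.72% and 1.93% in the 3 pull-downs. The median over all genes was 0.01. The count was 78 with each library left out and with each count model run, and 76 with limma on log2(TPM + 1), where the median was -1.09 and that of all genes 0.40.

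Rps14 was the poorest in the pull-down, with 830.9, 754.1 and 813.2 CPM in the inputs and 158.4, 139.5 and 158.4 in the pull-downs, a difference of -2.39 (SE 0.08, edgeR adjusted p = 8.84e-07). Rplp1 and Rplp0 of the stalk followed close behind: Rplp1 fell from 568.1, 489.8 and 587.9 to 127.3, 106.1 and 118.6 CPM (-2.22, SE 0.10), and Rplp0 from 1655, 1484 and 1558 to 378.7, 345.8 and 360.8 (-2.11, SE 0.07). Rps16 (-2.20, SE 0.11) and Rpl35a (-2.12) lay between them. The third stalk gene, Rplp2, fell from 373.7, 304.7 and 362.2 to 100.4, 97.3 and 99.6 CPM (-1.81, SE 0.09). At the other end, Rpl5 held 565.1, 494.0 and 527.1 CPM in the inputs and 367.1, 352.9 and 374.8 in the pull-downs, the smallest loss (-0.53, SE 0.07, edgeR adjusted p = 0.00067). Rpl29 (-0.64, SE 0.09) and Rpl4 (-0.68, SE 0.07) came next. The ends of this order lay far apart against the SEs of these genes. Rpl39 had few counts and an SE of 0.33 (-1.70, edgeR adjusted p = 0.00618).

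Short transcripts as a whole were poorer in the pull-down. By relative length 71 of the 78 members lay in the shortest of 5 equal classes of genes and 6 in the next. The 2762 other genes of the shortest class had a median of -0.36 with 36.9% called lower, against -1.61 for the 71 members. In the next class the medians were -0.07 for 2826 other genes and -1.12 for 6 members. Across members, the m6A difference had a Spearman correlation of 0.38 with relative length (n = 78), and 0.38 across 14163 genes, as a description of genes that share libraries. The complex I genes, also short, had a median of -0.91 with 36 of 41 lower, the mitochondrial ribosomal protein genes -0.32 with 37 of 75 lower, the translation factors -0.73 with 20 of 22 lower, and the biogenesis factors 0.01 with 6 lower and 2 higher of 30. The part of length in the members' loss was not tested further.

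**Figure D4:**
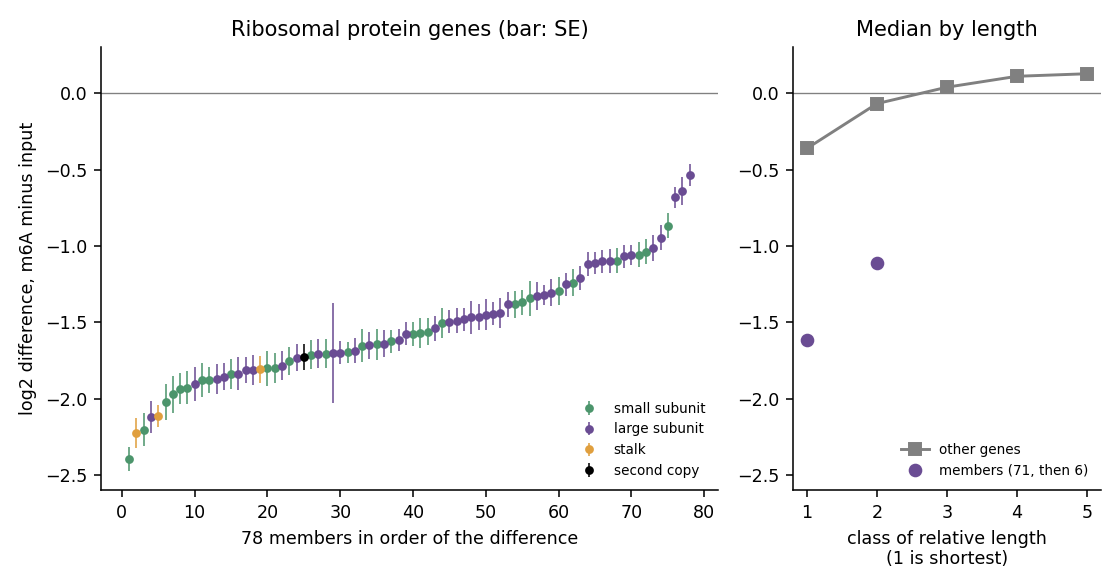
Left, log2 difference between m6A pull-down and input for the 78 members tested, in order, with SE as bars and the role as colour. Right, medians by class of relative length (5 equal classes) for all other genes (grey squares) and for the members (71 in the shortest class, 6 in the next, and 1 in the longest that is not drawn); every member lies below 0, and members lie below other genes of their length class (-1.61 against -0.36).

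In the YTHDF2 series, some ribosomal protein mRNAs were depleted and some enriched by pull-down, with the YTHDF2 antibody as with IgG. Against input, 35 of 78 members were called lower and 6 higher with YTHDF2 (background 17.5% lower and 30.7% higher; median -0.85), and 26 lower and 9 higher with IgG (background 17.0% and 20.2%; median -0.63). Both comparisons share the input libraries. All 26 members lower in IgG were among the 35 lower with YTHDF2, and the 6 higher with YTHDF2 were among the 9 higher in IgG. Directly between YTHDF2 and IgG no member was called by edgeR (smallest adjusted p = 0.246, none at an unadjusted p under 0.05), and DESeq2 called 1 lower. With the replicate block 1 was called higher and 1 lower. In that comparison 14.3% of all genes were higher and 0.33% lower.

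Rplp1 and Rplp0 of the stalk were depleted most. Rplp1 held 737.5, 642.3 and 778.4 CPM in the inputs, 166.1, 74.8 and 84.1 in IgG and 151.5, 80.4 and 64.6 in YTHDF2 libraries, so that both pull-downs lay far below input and overlapped each other. Its differences from input were -2.86 (SE 0.36) for YTHDF2 and -2.73 (SE 0.36) for IgG. Rplp0 held 897.2, 1168 and 1517 CPM in the inputs, 252.2, 175.9 and 214.7 in IgG and 221.3, 169.7 and 185.0 in YTHDF2 libraries (-2.64, SE 0.23, and -2.48, SE 0.23). The other stalk gene, Rplp2, held 416.8, 369.9 and 436.2 CPM in the inputs, 437.9, 213.5 and 236.5 in IgG and 365.5, 187.5 and 183.3 in YTHDF2 libraries. Its IgG values overlapped input and its YTHDF2 values lay below every input (-0.73, SE 0.31, edgeR adjusted p = 0.070). It was not called in either comparison. Among the small subunit genes Rps29, Rps20 and Rps12 were lowest with YTHDF2 (-2.35, -2.34 and -2.17), and Rps2 differed by -1.74 (SE 0.32).

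A smaller set was enriched in both pull-downs. Rpl14 (chromosome 9 from 120571517 to 120574653), a large subunit protein, held 1388, 1228 and 1494 CPM in the inputs, 3050, 2461 and 3253 in IgG and 2412, 1988 and 2721 in YTHDF2 libraries, a difference of 1.09 (SE 0.18) for IgG and 0.79 (SE 0.18) for YTHDF2. Rpl35 (1.03 and 0.73), Rpl17 (1.01 and 0.80), Rpl23a (0.89 and 0.67) and Rpl19 (0.84 and 0.60) were called in both. Rps3 (1.12), Rps25 (0.79) and Rps6 (0.68) were called in IgG alone, and the difference between the pull-downs was called for none of them. The call of Rps3 was lost without IgG replicate 1 or any input library (edgeR adjusted p 0.0694 to 0.158) and that of Rps6 without Input replicate 2. Rps3, a small subunit protein at the mRNA entry, held 1780, 1451 and 1864 CPM in the inputs and 5966, 2539 and 2561 in IgG, with replicate 1 far above the rest.

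Between YTHDF2 and IgG the members moved alike, by an amount that rested on single libraries. With a library or replicate number 1 left out, the member median ranged from -0.59 to 0.27. These fits leave the pairing of replicate numbers out, and in them the direction changed too. Within each replicate number the member median, relative to the input mean, was lower with YTHDF2 than with IgG. The values were -0.26 against 0.01, -1.27 against -1.19 and -1.24 against -1.04 for replicates 1, 2 and 3. The values that follow are those of the fit with all libraries. The median was -0.21 (quartiles -0.25 and -0.17), 76 of 78 were negative, and the lowest was Rps6 at -0.36 (SE 0.18, edgeR adjusted p = 0.246). The exceptions were Rpl41 at 0.37 (SE 0.26, edgeR adjusted p = 0.393) and Rpl39 at 0.14 (SE 0.33). The median over all genes was -0.08 (quartiles -0.29 and 0.45), and the share of all genes that were negative is not given here. Across the 78 members, the difference between IgG and input had a Spearman correlation of 0.52 with the m6A difference measured in other libraries, against 0.18 across 13637 genes, while for YTHDF2 minus IgG it was -0.15 against 0.44. These correlations describe genes that share libraries and transcript properties.

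Replicate 1 of both pull-downs stood apart. Relative to the input mean, the member median was 0.01, -1.19 and -1.04 in IgG replicates 1, 2 and 3 and -0.26, -1.27 and -1.24 in YTHDF2 replicates 1, 2 and 3. The count of members lower with YTHDF2 rose from 35 to 58 without YTHDF2 replicate 1, and that in IgG from 26 to 52 without IgG replicate 1. Without replicate number 1 in all 3 groups the counts were 63 and 58, and the count higher with YTHDF2 was 3. Replicate numbers tie these libraries, and with the replicate block 62 members were lower with YTHDF2 and 55 in IgG. The 6 higher with YTHDF2 became 2 or 3 without YTHDF2 replicate 1 or 3 or Input replicate 1 or 2, and the calls of Rpl14 and Rpl17 passed in each of these fits. Those of Rpl19, Rpl23a and Rpl35 were each lost without YTHDF2 replicate 1 or Input replicate 2, and those of Rpl19 and Rpl23a also without YTHDF2 replicate 3 or Input replicate 1 or 3 (edgeR adjusted p 0.0502 to 0.132). If the titles named the libraries rightly, each difference between YTHDF2 and input would have the opposite sign.

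**Figure D5:**
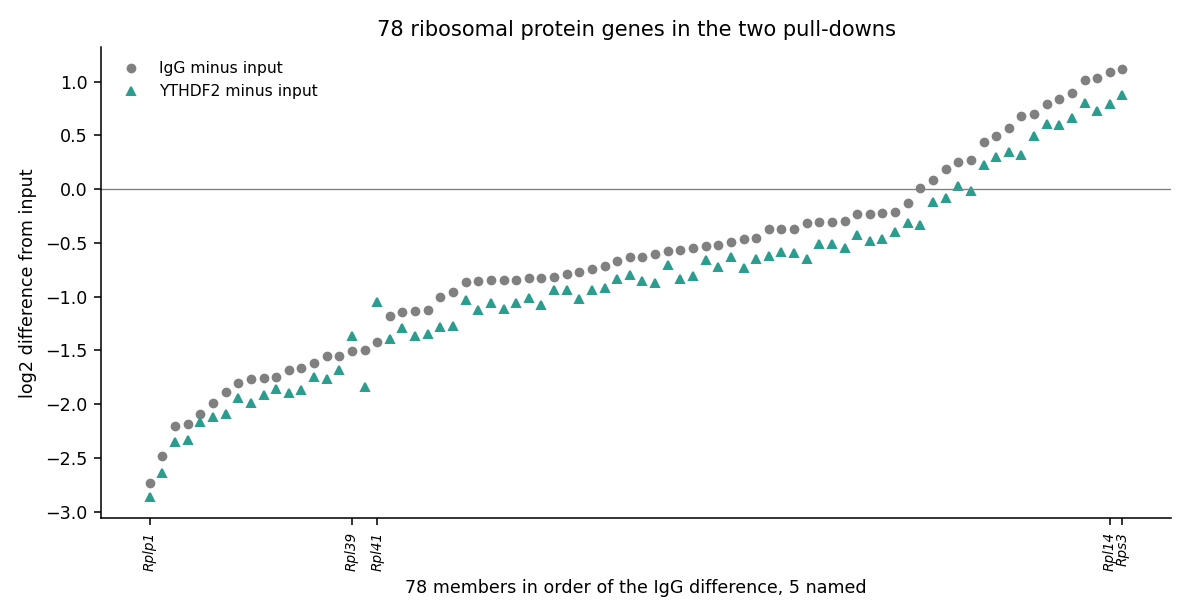
Log2 difference from input for 78 members in the IgG pull-down (grey circles) and the YTHDF2 pull-down (green triangles), in order of the IgG value. The values run from Rplp1 (-2.73 and -2.86) to Rps3 (1.12 and 0.87), with Rpl41 and Rpl39 as the members where YTHDF2 lies above IgG; by sample titles the input and YTHDF2 names would be swapped.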

How the data were processed

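The members and gene lists were chosen with earlier results of these data known. Per the submitters' processing notes, the authors used bcl2fastq 2.17.1.14, Trimmomatic 0.32 and STAR 2.5.2a on GRCm38, while the sources used here name no counting tool and no rule for multi-mapping reads. Per the labels, RNA-seq libraries were made by SMART-seq2 and the others by a modified SMART-seq3. The authors deposited whole-number counts and TPM values per gene symbol.

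The counts of each series were fitted on their own with edgeR 4.0.16 in R 4.3.3 (quasi-likelihood, TMM, filterByExpr, all libraries of the series, 14029, 14167 and 14255 genes). Tests were two-sided with Benjamini-Hochberg adjustment over all genes and a threshold of 0.05, and differences are log2 with SE. Named members were, by rule, up to 6 with the largest change in each direction, members called against the majority, and a fixed set of stalk, p53-linked and second-copy genes with their main copies. Others were named after their values were seen. A few genes are counted but not reported by name here. Alternatives were RLE factors, library size alone, no filter, scaling to Nduf genes, the compared libraries alone, a replicate block, libraries left out, DESeq2 1.42.0, limma 3.58.1 on log2(TPM + 1) and, for the YTHDF2 series, the names in the titles. The models were tested on simulated counts.

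Residuals of same-numbered libraries correlated at 0.18 to 0.80 across hours within a label, 0.11 to 0.50 between m6A pull-down and input and 0.41 to 0.70 in the YTHDF2 series, each pair over 0.1, so numbers were taken to pair these libraries. Between genotypes the range was -0.12 to 0.08, and numbers were not taken as pairs. The main fits, which gave the SEs, adjusted p-values and call counts unless stated, used group means and left the pairing out. Pairing entered only as the replicate block, for which the shares of all genes called are not given here. No 2 libraries of a group agreed within sampling noise. Promoter windows came from RefSeq (GRCm38.p6, 250 bases before to 50 after a start), for 60 of 81 members.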

Additional observations from a re-analysis of the deposited data

How the results depend on the processing

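Counts of members called depended on the processing more than their directions did. Between labels, the counts at 0, 2 and 4 h (15, 10 and 10) became 28, 35 and 39 with library size alone, 6, 3 and 2 with no low-count filter and 8, 5 and 1 with the compared libraries alone. DESeq2 gave 26 and 16 at 0 and 2 h, and limma on log2(TPM + 1) 19 and 27 at 2 and 4 h. With libraries or replicate numbers left out they ranged from 3 to 38 at 0 h, 0 to 23 at 2 h and 0 to 24 at 4 h. The replicate block, not taken as a pairing here, gave 15, 11 and 11. In WT at 2 h (18) the count was 40 with RLE factors, 7 with library size alone, 10 with no filter, 69 with the replicate block, 1 scaled to Nduf genes, 78 with the compared libraries alone, 50 with DESeq2, 3 in TPM and 5 to 21 with libraries left out. In WT at 4 h (76) it was 50 with library size alone, 1 scaled to Nduf genes, 19 in TPM and 72 to 77 with libraries left out. In cKO libraries at 2 h (21) it was 8 with no filter, 52 with the replicate block, 1 scaled to Nduf genes, 1 with the compared libraries alone, 32 with DESeq2, 13 in TPM and 6 to 29 with libraries left out. At 4 h (73) it was 3 scaled to Nduf genes, 20 with the compared libraries alone, 39 in TPM and 49 to 77 with libraries left out. For YTHDF2 minus input, 6 higher became 2 with RLE factors, 35 by title, 2 with the compared libraries alone, 3 with DESeq2, 11 in TPM and 2 to 7 with libraries left out, and 35 lower became 62 with the replicate block, 6 by title, 54 with the compared libraries alone and 24 to 63 with libraries left out. For IgG minus input, 9 higher and 26 lower became 0 and 0 by title, 55 lower with the replicate block, and 19 to 58 lower with libraries left out. For YTHDF2 minus IgG, none became 1 higher and 1 lower with the replicate block, 26 higher and 9 lower by title, and 1 lower with DESeq2. Leaving out replicate number 1 in every group of the YTHDF2 series was added after seeing the data: it gave 3 higher and 63 lower for YTHDF2 and 58 lower for IgG. The m6A and slope counts moved by less than 1.5 times in all settings. The replicate block changed no other call count by over 1.5 times.

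Directions reversed in 18 of the single-gene values, 863 stayed on their side of the threshold and 227 lost their call. Scaled to Nduf genes, Rpl11 at 2 h in WT was -0.020, and at 4 h Rpl5 was -0.33, Rpl6 -0.32, Rpl10 -0.32 and Rplp0 -0.083, since that scaling lowers all values. By title, which swaps the libraries, YTHDF2 minus input was 2.86 for Rplp1, 2.64 for Rplp0, 2.35 for Rps29, 2.34 for Rps20, 2.169 for Rps12, 1.74 for Rps2, -0.79 for Rpl14, -0.80 for Rpl17, -0.73 for Rpl35, -0.60 for Rpl19 and -0.67 for Rpl23a, and IgG minus input 0.13 for Rplp1 and 0.16 for Rplp0. For the other changes the cause was not tested. Depth limits Rpl39 and the second copies Rpl39l, Rpl10l and Rpl3l, which had few counts.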
